A study of Mus musculus with 36 samples.

Results

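Transcripts of 10 genes that encode the precursors of non-opioid neuropeptides were followed in 3 mouse brain regions after nerve injury: Sst, Npy, Vip, Cck, Tac1, Cartpt, Nts, Adcyap1, Ucn and Trh. They were chosen by gene symbol, and all 10 were found among the 31554 genes of the deposited table. The libraries came from adult male C57BL/6 mice, 2.5 months after spared nerve injury (SNI) of the sciatic nerve or after sham surgery. SNI cuts branches of the nerve and spares another, and is a widely used rodent model of lasting neuropathic pain. Each of the 6 groups held 6 libraries: SNI and sham from the nucleus accumbens (NAc), SNI and sham from the medial prefrontal cortex (PFC), and SNI and sham from the periaqueductal grey (PAG). Every mouse was male and had surgery, and the labels name no untreated mice and no mutant or transgenic line in these groups. The labels describe the input as pooled RNA without saying how many mice stand behind a library, or whether regions came from the same mice, so the p-values given here reflect library-to-library variation, part of which may be technical.

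Neuropeptides are cut from larger precursors in the secretory pathway, packed into dense-core vesicles, and act on G protein-coupled receptors, often in addition to a fast transmitter from the same neuron. Somatostatin (Sst), neuropeptide Y (Npy) and vasoactive intestinal peptide (Vip) are classical products of inhibitory interneurons. Cholecystokinin (Cck) is made both by interneurons and by excitatory neurons of the cortex. Tac1 encodes substance P and neurokinin A and is a product of striatal projection neurons, while Cartpt (cocaine- and amphetamine-regulated transcript) and Nts (neurotensin) are peptides of reward circuits. Adcyap1 encodes PACAP, a relative of Vip. Ucn encodes urocortin, a ligand of the corticotropin-releasing hormone receptors, and Trh encodes thyrotropin-releasing hormone, which is also made outside the hypothalamus. In rodents, peptide neurons of the Edinger-Westphal nucleus, at the ventral border of the PAG, are known to make urocortin together with CART and cholecystokinin.

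On mm10 (GENCODE M21), the interneuron precursors are Sst (ENSMUSG00000004366) at chr16:23889573-23890958 on the minus strand, Npy (ENSMUSG00000029819) at chr6:49822710-49829507 on the plus strand and Vip (ENSMUSG00000019772) at chr10:5639218-5647617 on the plus strand. The next are Cck (ENSMUSG00000032532) at chr9:121489824-121495694 on the minus strand and Adcyap1 (ENSMUSG00000024256) at chr17:93199017-93206537 on the plus strand. The striatal and reward-circuit precursors are Tac1 (ENSMUSG00000061762) at chr6:7554879-7565834 on the plus strand, Cartpt (ENSMUSG00000021647) at chr13:99898489-99901091 on the minus strand and Nts (ENSMUSG00000019890) at chr10:102481756-102490486 on the minus strand. The last pair is Ucn (ENSMUSG00000038676) at chr5:31138063-31138829 on the minus strand and Trh (ENSMUSG00000005892) at chr6:92242061-92244650 on the minus strand. None of the 10 overlaps another annotated gene.

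Levels were RPKM, which scales reads by gene length and by the total assigned to genes, and so allows levels of different genes to be compared. Libraries held 31.2 to 64.9 M (mega) assigned reads in NAc, 36.3 to 64.7 M in PFC and 27.6 to 44.1 M in PAG. The region labels held against summed marker levels. Medium spiny neuron markers (6 genes, among them Drd2 and Ppp1r1b) reached 579 to 879 RPKM in NAc SNI and 578 to 832 RPKM in NAc sham libraries, and at most 63.7 RPKM in any PFC or PAG library. Cortical excitatory markers (5 genes, among them Slc17a7) summed to 530 to 670 RPKM in PFC SNI and 565 to 616 RPKM in PFC sham libraries. Midbrain markers (5 genes, among them Slc17a6 and Gata3) summed to 117 to 140 RPKM in PAG SNI and 127 to 140 RPKM in PAG sham libraries. NAc libraries were uneven in the cortical excitatory markers, whose sum ran from 3.26 to 206 RPKM over SNI and from 2.24 to 158 RPKM over sham libraries. In tissue samples, fewer cells of a type and less RNA per cell cannot be told apart.

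The promoters of the genes that the results turn on are shown because Cartpt, Ucn and Cck varied together over PAG libraries and Sst was the member that passed the test after SNI there. Sequences are from RefSeq on GRCm38.p6, which held promoters of all 10 genes, and run 5′ to 3′ on the strand of the gene from 250 bases before to 50 bases after its start. Capitals mark the cAMP response element TGACGTCA, which reads the same on both strands, or, in Cck, its core TGACG on the other strand, CGTCA.
Cartpt (chr13:99900634-99900933, minus strand): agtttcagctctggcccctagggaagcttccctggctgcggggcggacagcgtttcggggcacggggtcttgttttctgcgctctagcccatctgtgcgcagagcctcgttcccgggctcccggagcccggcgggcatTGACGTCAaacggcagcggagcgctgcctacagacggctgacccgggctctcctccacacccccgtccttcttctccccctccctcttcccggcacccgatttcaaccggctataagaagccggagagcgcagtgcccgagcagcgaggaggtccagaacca
Ucn (chr5:31138846-31139145, minus strand): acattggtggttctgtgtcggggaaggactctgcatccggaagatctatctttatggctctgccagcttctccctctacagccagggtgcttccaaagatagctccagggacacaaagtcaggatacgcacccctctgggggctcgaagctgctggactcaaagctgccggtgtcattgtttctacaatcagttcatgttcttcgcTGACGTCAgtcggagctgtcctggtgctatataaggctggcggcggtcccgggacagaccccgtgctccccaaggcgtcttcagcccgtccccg
Cck (chr9:121495645-121495944, minus strand): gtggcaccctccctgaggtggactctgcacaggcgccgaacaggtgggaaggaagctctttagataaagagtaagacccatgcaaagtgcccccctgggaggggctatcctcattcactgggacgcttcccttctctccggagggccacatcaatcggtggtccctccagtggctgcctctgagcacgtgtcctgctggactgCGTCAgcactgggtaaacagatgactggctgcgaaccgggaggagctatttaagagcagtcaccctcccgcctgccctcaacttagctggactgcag
Sst (chr16:23890795-23891094, minus strand): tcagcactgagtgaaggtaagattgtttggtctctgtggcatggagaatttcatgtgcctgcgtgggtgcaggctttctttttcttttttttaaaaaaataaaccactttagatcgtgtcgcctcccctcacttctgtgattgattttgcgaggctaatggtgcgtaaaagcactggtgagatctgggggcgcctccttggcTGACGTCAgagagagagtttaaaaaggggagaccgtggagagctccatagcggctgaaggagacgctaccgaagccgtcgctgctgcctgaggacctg
The full element was found in 3 of the 10 genes, beginning at -48 in Sst, -112 in Cartpt and -44 in Ucn relative to the RefSeq start. The GENCODE spans given above reach further upstream than that start in Sst and Cartpt, and hold the element of both genes. In Ucn the GENCODE span begins downstream of the RefSeq start and lies outside the stretch shown. The element was present in 1.79% of the 32851 mouse promoters of the same length. The core in Cck began at -47. On either strand, the core was found in the promoters of every member except Npy, and in 20.81% of all promoters, full elements included. A match is a description of the letters and not of a bound site.

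Each region had its own leading precursor transcript. In sham NAc libraries, Sst led with 130 ± 26.2 RPKM (SD, n = 6), followed by Tac1 with 80.9 ± 11.7, Npy with 58.0 ± 7.31 and Cartpt with 50.1 ± 8.87 RPKM. Neighbours in that order overlapped: the lowest Sst library (93.9 RPKM) lay under the highest Tac1 library (96.4 RPKM), and Npy and Cartpt overlapped at 47.2 to 65.1 and 41.1 to 59.9 RPKM. Nts (28.6 ± 7.42) and Cck (24.1 ± 16.7 RPKM) came next and overlapped. Vip (3.97 ± 2.14), Trh (2.77 ± 0.305) and Adcyap1 (1.25 ± 1.03 RPKM) were low and overlapped too.

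In sham PFC libraries, Cck led with 199 ± 28.97 RPKM (SD, n = 6) and Sst followed with 161 ± 49.0 RPKM, with overlapping ranges of 160 to 230 and 99.01 to 229 RPKM. Npy (69.0 ± 12.6), Vip (27.9 ± 2.09) and Adcyap1 (13.7 ± 1.44 RPKM) stood apart from each other in every library. Tac1 (4.21 ± 0.267) and Cartpt (2.61 ± 0.936) overlapped, as did Trh (1.24 ± 0.280) and Nts (0.637 ± 0.185 RPKM).

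In sham PAG libraries, Cartpt was highest in the mean, at 185 ± 129 RPKM (SD, n = 6), and its lowest library (60.2 RPKM) exceeded the highest Sst library (51.4 RPKM). Sst (43.6 ± 4.30) and Vip (35.7 ± 2.86 RPKM) overlapped. Adcyap1 (20.2 ± 0.639), Tac1 (20.05 ± 0.908) and Cck (18.8 ± 7.41 RPKM) were not distinguishable by their ranges, and neither were Nts (9.32 ± 0.738), Trh (9.08 ± 1.07) and Npy (7.85 ± 1.47 RPKM). Ucn, at 1.39 ± 1.29 RPKM, was the lowest member there.

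**Figure D1:**
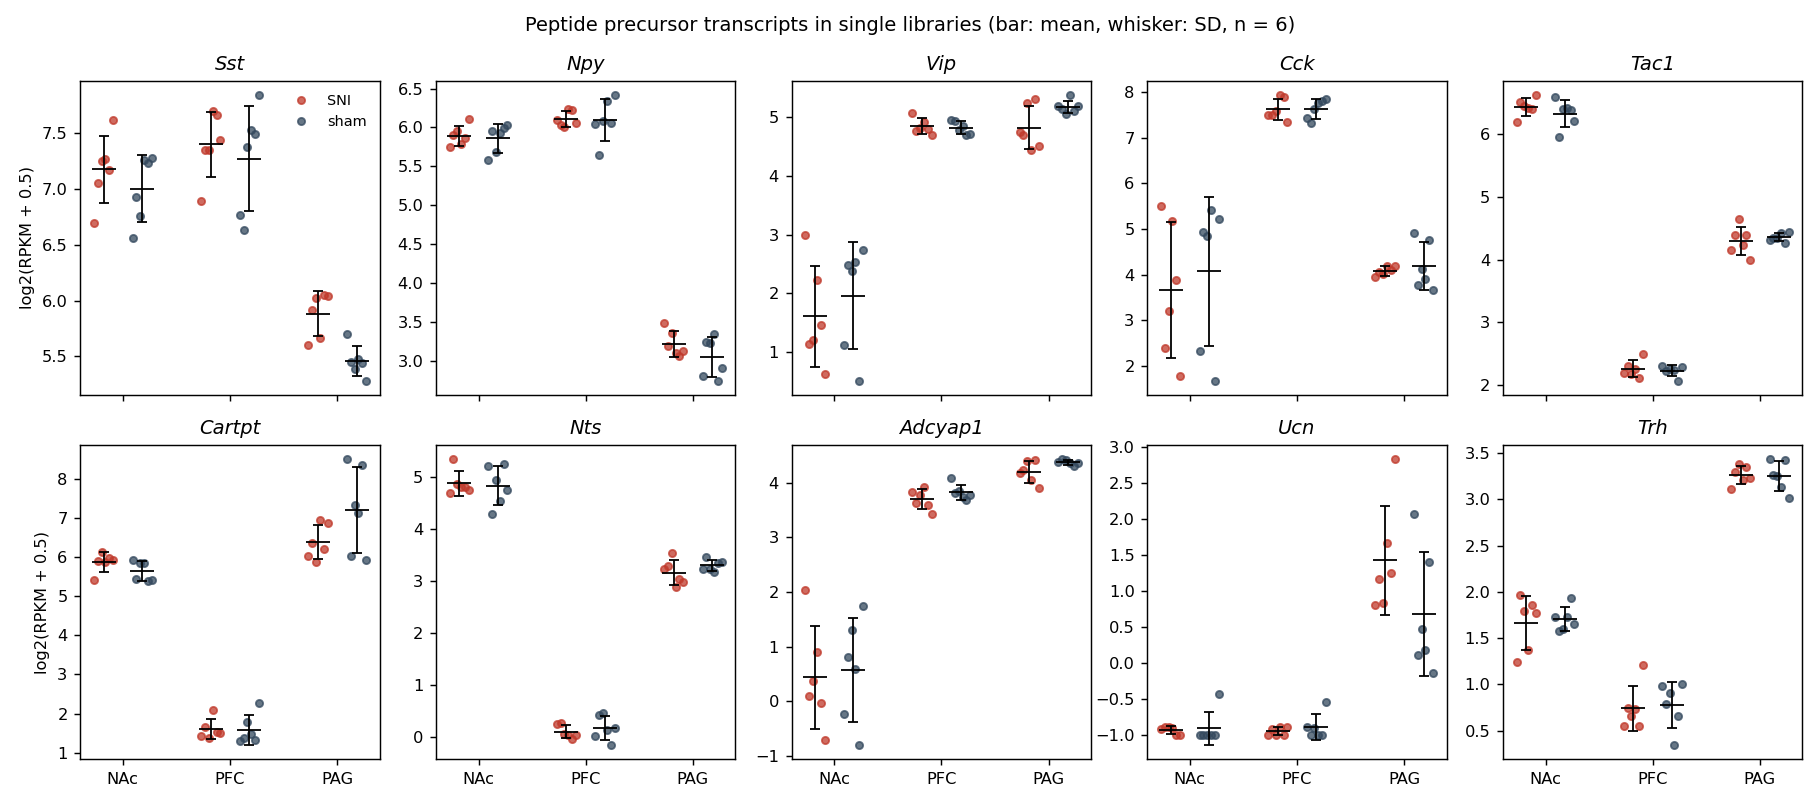
Level of each precursor transcript in single libraries as log2(RPKM + 0.5), by region, with SNI in red left of sham in blue; the bar is the mean and the whisker the SD of 6 libraries. Tac1 and Nts sit highest in NAc, Cck in PFC, and Ucn and Trh in PAG, and the SNI and sham points of a region overlap in all 10 genes.

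Regions were compared between sham groups in 1 limma model of all 36 libraries on log2(RPKM + 0.5), with a call at a Benjamini-Hochberg adjusted p under 0.05 over 15639 genes and a fold of at least 2. Ucn passed the filter through its PAG level alone and had to differ from PAG, so it is left out of the counts of the other 9 members. NAc differed from PFC in 6 of the 9, 3 higher and 3 lower, in a comparison that called 6.85% of all genes (3.38% higher and 3.47% lower). NAc differed from PAG in 8 of the 9, 4 higher and 4 lower, against 13% of all genes (6.59% higher and 6.42% lower). PFC differed from PAG in 7 of the 9, 3 higher and 4 lower, against 15.1% of all genes (7.74% higher and 7.35% lower). The members were chosen with such values known, so these counts are a description.

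Interneuron peptides were higher in the forebrain regions for Sst and Npy but not for Vip. Sst had a median of 136 RPKM in sham NAc and 172 RPKM in sham PFC against 43.2 RPKM in sham PAG, a log2 fold change of 1.55 (SE 0.17, limma adjusted p = 4.59e-10) for NAc over PAG and 1.82 (SE 0.17, adjusted p = 9.27e-12) for PFC over PAG. Npy ran from 47.2 to 65.1 RPKM in sham NAc and from 49.4 to 84.8 RPKM in sham PFC against 6.19 to 9.66 RPKM in sham PAG, with log2 fold changes of 2.82 and 3.05 over PAG (SE 0.11 each, limma adjusted p = 7.90e-22 and 7.40e-23). NAc and PFC did not differ past the threshold in either gene (limma adjusted p = 0.168 for Sst and 0.0620 for Npy). Vip was lowest in NAc, with a median of 4.89 RPKM in sham NAc, 27.8 RPKM in sham PFC and 35.4 RPKM in sham PAG. Its log2 fold change was -2.87 (SE 0.30, limma adjusted p = 3.83e-10) for NAc over PFC and -3.22 (SE 0.30, adjusted p = 1.28e-11) for NAc over PAG, while PFC over PAG was -0.35 with a 95% interval of -0.96 to 0.25 (adjusted p = 0.283), and 0.024 between SNI libraries.

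Adcyap1, whose peptide shares receptors with Vip, was lowest in NAc too. Its levels were 0.0754 to 2.83 RPKM in sham NAc, 12.3 to 16.5 RPKM in sham PFC and 19.2 to 21.1 RPKM in sham PAG, and no library of NAc reached those of the other regions. The log2 fold change was -3.26 for NAc over PFC and -3.80 for NAc over PAG (SE 0.31 each, limma adjusted p = 4.55e-11 and 4.87e-13). PFC over PAG was -0.55, with an interval of -1.18 to 0.08 (adjusted p = 0.106). Cck was a cortical transcript: the PFC sham libraries (160 to 230 RPKM) lay above every sham NAc library (2.71 to 42.4 RPKM) and every sham PAG library (12.3 to 29.7 RPKM). Its log2 fold change was -3.56 for NAc over PFC and 3.44 for PFC over PAG (SE 0.51 each, limma adjusted p = 3.38e-07 and 3.37e-07). NAc over PAG was -0.12, with an interval from -1.17 to 0.93 that leaves a 2-fold difference in either direction possible (adjusted p = 0.844).

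The peptides of striatal and reward circuits were high in NAc and scarce in PFC. Tac1 had 61.8 to 96.4 RPKM in sham NAc, 3.71 to 4.45 RPKM in sham PFC and 18.8 to 21.2 RPKM in sham PAG, 3 ranges that did not overlap. The log2 fold change of Tac1 was 4.10 for NAc over PFC, 1.97 for NAc over PAG and -2.13 for PFC over PAG (SE 0.09 each, limma adjusted p = 2.73e-28, 4.93e-20 and 5.35e-21). Nts had 19.03 to 37.6 RPKM in sham NAc, 0.398 to 0.869 RPKM in sham PFC and 8.45 to 10.4 RPKM in sham PAG, again without overlap, and its log2 fold changes were 4.65, 1.53 and -3.12 (SE 0.13 each, limma adjusted p = 4.80e-25, 2.46e-12 and 8.94e-21). Cartpt had 41.1 to 59.9 RPKM in sham NAc and 1.95 to 4.36 RPKM in sham PFC against 60.2 to 359 RPKM in sham PAG. Its log2 fold change was 4.05 for NAc over PFC and -5.61 for PFC over PAG (SE 0.30 each, limma adjusted p = 8.05e-14 and 4.49e-18). For NAc over PAG, Cartpt gave -1.56 (SE 0.30, limma adjusted p = 2.03e-05). That value rested on the sham PAG libraries: between SNI libraries it was -0.51 (adjusted p = 0.128), and it was -0.95 without PAG sham libraries 25 and 29.

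Trh and Ucn were PAG transcripts. Trh had 2.49 to 3.32 RPKM in sham NAc, 0.774 to 1.51 RPKM in sham PFC and 7.57 to 10.3 RPKM in sham PAG. The log2 fold change of Trh was -1.55 for NAc over PAG and -2.47 for PFC over PAG (SE 0.12 each, limma adjusted p = 6.55e-14 and 1.72e-19). Its NAc over PFC value, 0.92 (SE 0.12, limma adjusted p = 2.56e-08), missed the 2-fold limit on this scale. Ucn was close to absent from both forebrain regions. Summed over 6 libraries, Ucn had 4 reads in NAc SNI, 6 in NAc sham, 3 in PFC SNI and 7 in PFC sham libraries, against 257 reads in PAG SNI and 154 in PAG sham libraries. All 6 NAc sham reads came from library 6 and 5 of the 7 PFC sham reads from library 18. No fold or test of Ucn between regions is taken as a result, since its fitted value would depend on the pseudocount and its place in the fit on its PAG level.

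Within NAc, the members fell into those that followed the excitatory cortical marker Slc17a7, which loads glutamate into vesicles in cortical neurons, and those that did not. Vip was 7.51, 1.71, 1.81, 4.19, 2.25 and 1.04 RPKM in NAc SNI libraries 7 to 12 and 1.66, 5.08, 4.69, 5.27, 0.928 and 6.19 RPKM in NAc sham libraries 1 to 6. Cck was 44.9, 4.78, 8.77, 35.6, 14.2 and 2.94 RPKM in SNI and 4.50, 30.1, 28.2, 42.4, 2.71 and 36.6 RPKM in sham libraries. Adcyap1 was 3.62, 0.569, 0.783, 1.36, 0.476 and 0.110 RPKM in SNI and 0.347, 1.26, 1.98, 1.01, 0.0754 and 2.83 RPKM in sham libraries. All 3 genes were highest in SNI libraries 7 and 10 and in sham libraries 2, 3, 4 and 6, and lowest in SNI library 12 and sham library 5, which are also the libraries at the ends of the Slc17a7 range (178 and 101 RPKM in SNI libraries 7 and 10, 2.53 RPKM in SNI library 12 and 1.59 RPKM in sham library 5).

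Over the 12 NAc libraries, with group means removed, Pearson's r with Slc17a7 was 0.973 for Vip, 0.975 for Cck and 0.907 for Adcyap1, and Spearman's rho was 1, 0.979 and 0.930. Permutation p was 1e-05 for r and for rho in Vip and Cck, the smallest that 100000 draws can give (4.5e-05 adjusted over 9 members), and 4e-05 for r in Adcyap1 (0.00012 adjusted). Without NAc sham library 5 and NAc SNI library 12, r was 0.979, 0.986 and 0.847. Trh ran the other way, with r of -0.699 (permutation p = 0.0119, adjusted 0.0269) and rho of -0.790 (adjusted p = 0.00785), and r of -0.722 without those libraries. Tac1 (r = -0.613, rho = -0.636) and Nts (r = -0.596, rho = -0.587) leaned the same way but missed the threshold after adjustment (permutation p = 0.0346 and 0.0409, adjusted 0.0613 for both). Sst, Npy and Cartpt gave r of -0.298, -0.275 and -0.194 (adjusted p = 0.437, 0.437 and 0.548); without those libraries r turned to 0.245 for Sst and 0.283 for Npy, and was -0.684 for Cartpt. These relations were looked for after the unevenness of Slc17a7 was known, and the share of cortical tissue in a library was not measured.

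**Figure D2:**
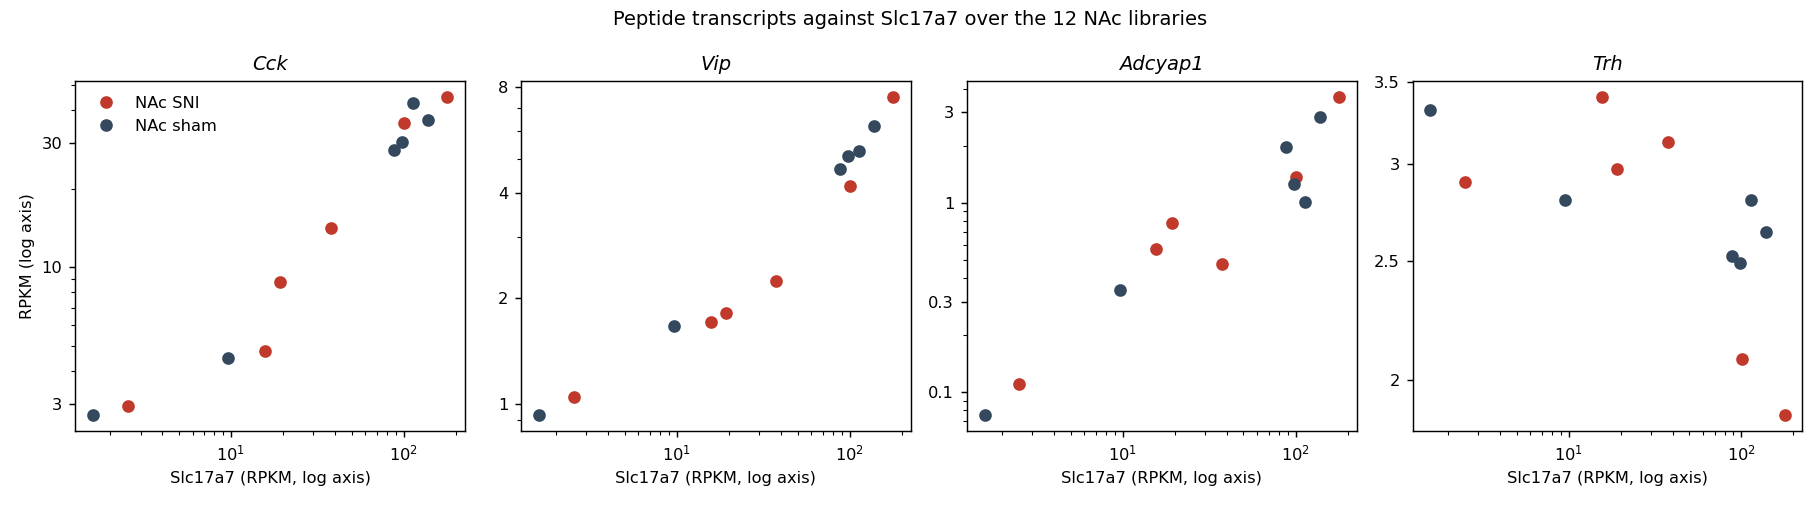
Level of Cck, Vip, Adcyap1 and Trh (RPKM, log axis) against Slc17a7 (RPKM, log axis) in the 12 NAc libraries, with SNI in red and sham in blue. Cck, Vip and Adcyap1 climb with Slc17a7 over both surgeries, while Trh is lowest, at 1.87 RPKM, in the SNI library with the highest Slc17a7, 178 RPKM.

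In PAG, Cartpt, Ucn and Cck were spread widely over single libraries. Cartpt was 65.1, 81.0, 58.1, 122, 72.9 and 117 RPKM in PAG SNI libraries 31 to 36 and 359, 64.2, 161, 138, 327 and 60.2 RPKM in PAG sham libraries 25 to 30. Sham libraries 25 and 29 stood far above all others, and the lowest sham libraries lay among the SNI libraries. Cck was 14.8, 16.1, 15.5, 17.7, 16.8 and 17.8 RPKM in SNI and 29.7, 13.2, 16.96, 14.4, 26.4 and 12.3 RPKM in sham libraries, with the same sham libraries on top. Ucn was 1.25, 1.75, 1.28, 2.68, 1.87 and 6.60 RPKM in SNI libraries, from 25, 34, 23, 52, 26 and 97 reads. In sham libraries Ucn was 3.71, 0.579, 0.888, 0.638, 2.13 and 0.405 RPKM, from 67, 10, 18, 12, 38 and 9 reads. Sham libraries 25 and 29 were again the highest of their group, but the highest Ucn of all stood in SNI library 36.

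The highest library exceeded the lowest 6.19-fold for Cartpt, 16.3-fold for Ucn and 2.43-fold for Cck. The SD of log2(RPKM + 0.5) around the group means was 0.838 for Cartpt, 0.813 for Ucn and 0.378 for Cck, while the median of that SD over the 15592 genes tested in PAG was 0.0996 and its 90th percentile 0.211. At least as large a spread was found in 34 genes for Cartpt, 39 for Ucn and 499 for Cck, each count including the gene itself. The other 7 members were less spread, from 0.135 for Trh and 0.144 for Adcyap1 to 0.217 for Npy and 0.272 for Vip.

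The 3 genes varied together. With group means removed, Pearson's r over the 12 PAG libraries was 0.935 for Cartpt with Cck (Spearman's rho = 0.902), 0.844 for Cartpt with Ucn (rho = 0.888) and 0.832 for Ucn with Cck (rho = 0.916). The genes were taken up for their spread over these same libraries, so the values are a description, with no test. Without sham libraries 25 and 29, r was 0.907 for Cartpt with Cck and 0.665 for Cartpt with Ucn. For Ucn with Cck, r was 0.960 without sham library 30 and SNI library 36.

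**Figure D3:**
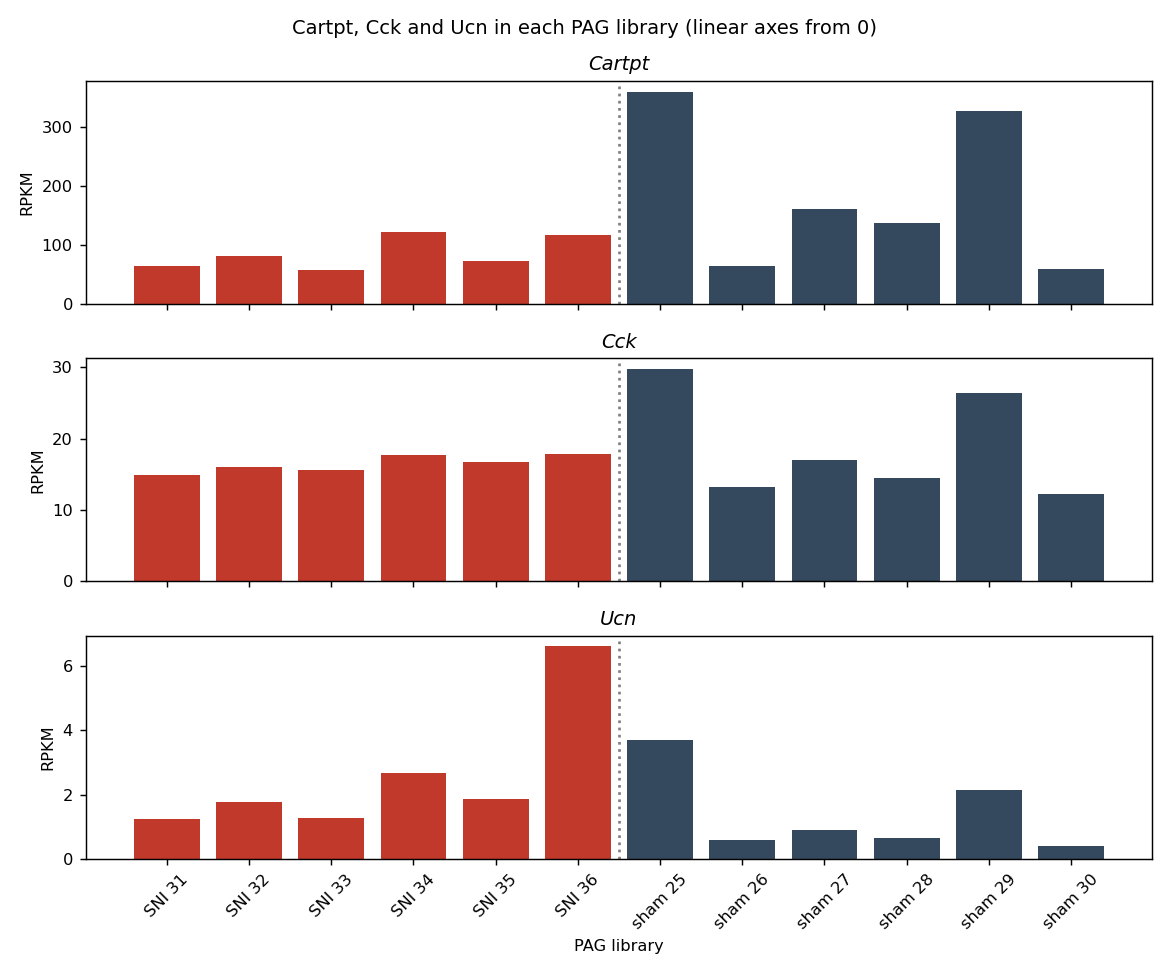
Level of Cartpt, Cck and Ucn in each PAG library (RPKM, linear axis from 0; each bar is 1 library), with SNI libraries 31 to 36 in red left of sham libraries 25 to 30 in blue. Sham libraries 25 and 29 are the highest sham libraries for all 3 genes, and SNI library 36 holds the highest Ucn, 6.60 RPKM.

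Within either surgery the relations kept their sign. Over the 6 SNI libraries alone, r was 0.887 for Cartpt with Cck, 0.833 for Cartpt with Ucn and 0.829 for Ucn with Cck, and over the 6 sham libraries alone it was 0.956, 0.917 and 0.986. Other neuronal markers were uneven in the same tissue. Chat, which makes acetylcholine, was 1.36, 2.33, 1.70, 0.361, 2.73 and 4.79 RPKM in PAG SNI and 5.45, 3.38, 4.32, 2.16, 6.16 and 3.56 RPKM in PAG sham libraries, with sham libraries 25 and 29 again on top. Among SNI libraries the order was mixed. Chat was lowest in library 34, which held the highest SNI value of Cartpt (122 RPKM). It was highest in library 36, which held the highest Ucn (6.60 RPKM). The summed cholinergic and motor list (4 genes) ran from 1.42 to 16.2 RPKM in SNI and from 9.23 to 27.2 RPKM in sham libraries, and the serotonin list (Tph2, Slc6a4 and Fev) from 79.5 to 235 RPKM in SNI and from 177 to 275 RPKM in sham libraries. None of these markers was at 0 throughout a PAG group, and their part in the spread of the peptides was not tested.

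The genes most like each member over the same libraries were found by Pearson's r of group-centred log2 values among genes averaging 2 RPKM or more. Over the 12 PAG libraries, Cck was the gene most like Cartpt of 10670 searched, followed by Spp1 (r = 0.923) and Dffa (r = 0.914), and Cartpt was most like Cck, followed by Adck2 (r = 0.925) and Hebp2 (r = 0.904). Ucn was most like Rhobtb2 (r = 0.938), Pacsin2 and Pgs1 (r = 0.922 each). Over all 36 libraries, Vip was most like Bdnf and Fam19a1 (r = 0.953 each) and Pter (r = 0.948), and Adcyap1 was most like Cbln2 (r = 0.951), Fam81a (r = 0.948) and Prdm8 (r = 0.940). Sst was most like Uqcc2 (r = 0.910), Ypel3 (r = 0.904) and Frs3 (r = 0.897). The remaining members had weaker likes: Gpr149 (r = 0.776), Shfm1 and Rps19 for Tac1; Htr4 (r = 0.719), Polr2d and Pde8b for Nts; Syndig1l (r = 0.696), Crym and Mapkap1 for Trh; and Krtcap2 (r = 0.617), Ppib and Rpl12 for Npy. The points share depth and the make-up of each library, and the values are given as a description.

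SNI was compared with sham within each region by limma on the 12 libraries of that region, for genes averaging 0.5 RPKM or more and with a call at adjusted p under 0.05. In NAc, 0 of the 9 members tested were called, in a comparison that called 0 of 15264 genes (0%); 660 genes had an unadjusted p under 0.05, and limma voom on recovered reads also called 0. Ucn was under the filter in NAc and in PFC. Of the genes that followed Slc17a7, Cck had -0.41 (95% interval -2.12 to 1.30) and Vip -0.35 (-1.33 to 0.63). Leaving out 1 library moved Cck between -0.89 (without sham library 5) and -0.037 (without SNI library 12), and Vip between -0.64 and -0.15 without the same libraries. Cartpt had 0.23 (-0.05 to 0.51). Cartpt averaged 58.6 ± 9.27 RPKM in SNI and 50.1 ± 8.87 RPKM in sham libraries (SD, n = 6 each), and the exact permutation test gave p = 0.104, with 5 of 6 SNI libraries above the sham median. The remaining estimates ran from -0.13 for Adcyap1 to 0.17 for Sst, with adjusted p of 0.78 to 0.937 over the 9 members. Tac1, second to Sst among the NAc members, averaged 86.5 ± 8.45 RPKM in SNI and 80.9 ± 11.7 RPKM in sham libraries, a log2 fold change of 0.10 with an interval of -0.11 to 0.31.

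In PFC, 0 of the 9 members tested were called, in a comparison that called 0 of 15192 genes (0%); 220 genes had an unadjusted p under 0.05 and voom called 0. Estimates ran from -0.13 for Adcyap1 (95% interval -0.31 to 0.06) to 0.13 for Sst (-0.30 to 0.56), and every adjusted p was 1. Cck, the leading transcript, averaged 198 ± 32.8 RPKM in SNI and 199 ± 28.97 RPKM in sham libraries (SD, n = 6 each), with an interval of -0.26 to 0.25 on the log2 scale. PFC SNI library 24 held the highest Tac1 (5.17 RPKM, other SNI libraries 3.84 to 4.44) and the highest Trh (1.82 RPKM, other SNI libraries 0.969 to 1.17), and it also held the highest sum of medium spiny markers in PFC, 63.7 RPKM against at most 30.2 RPKM in sham libraries. The part of those markers in the peptide values was not tested.

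In PAG, 1 of the 10 members was called: Sst rose, in a comparison that called 35.2% of 15592 genes (21.5% higher and 13.7% lower, 3360 and 2135 genes). Under quantile scaling the split was 2924 higher and 4019 lower. The share of members called was under the share of all genes. Sst was 48.0, 59.7, 64.5, 50.2, 65.9 and 65.5 RPKM in SNI and 51.4, 43.3, 41.4, 44.0, 43.0 and 38.4 RPKM in sham libraries. Every SNI library exceeded the sham median, 4 of them lay above all sham libraries, and SNI libraries 31 and 34 lay under the highest sham library. The log2 fold change of Sst was 0.43 (SE 0.09, 95% interval 0.24 to 0.61, limma adjusted p = 0.00214), and the exact permutation test on RPKM gave p = 0.00649, where the smallest possible is 0.00216.

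**Figure D4:**
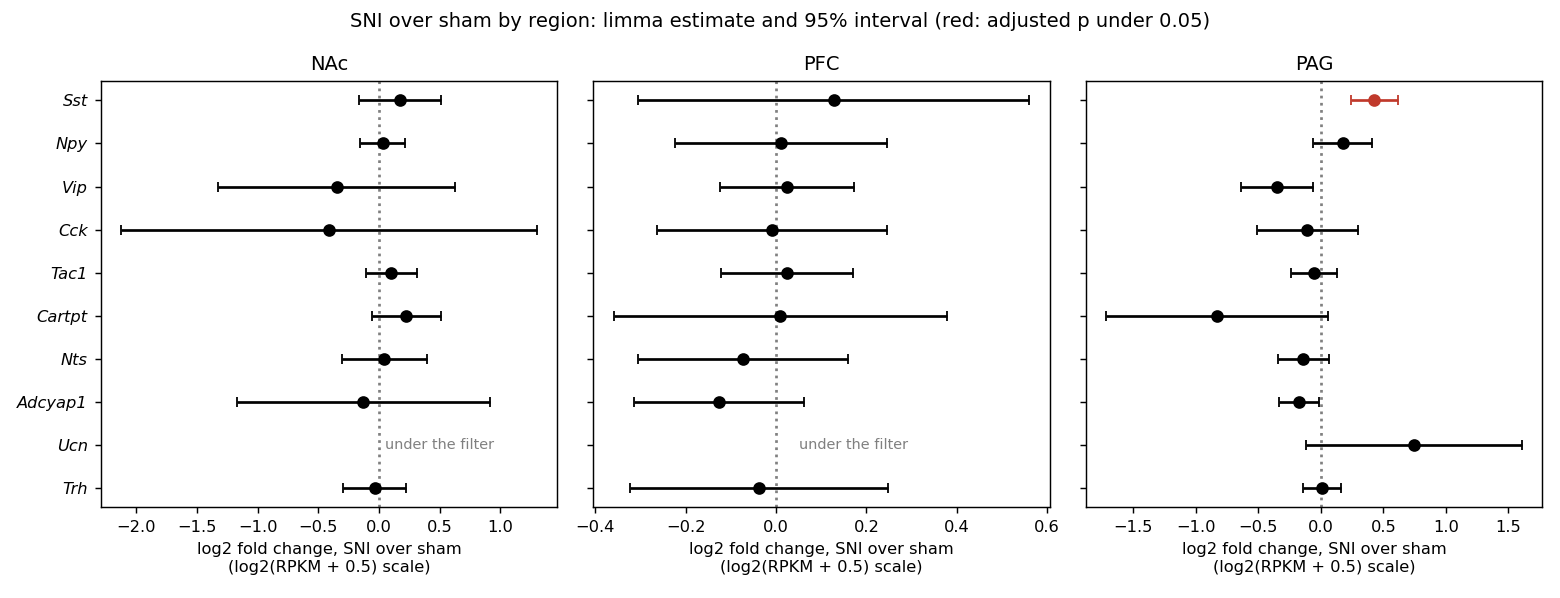
Log2 fold change of SNI over sham (limma, log2(RPKM + 0.5) scale) with its 95% interval for each member in NAc, PFC and PAG, red where the adjusted p was under 0.05; the 3 horizontal axes differ in range. Sst in PAG, at 0.43, is the member that passed the threshold. The widest intervals are those of Cck, Adcyap1 and Vip in NAc, followed by those of Cartpt and Ucn in PAG.

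Whether Sst was called in PAG depended on adjusting for a property of the libraries. The GC slope of a library says how far GC-rich genes read higher there, on the log2 scale, than in the average library of the region. It ran from 0.04 to 0.23 per 10 percentage points of GC in PAG SNI libraries and from -0.24 to -0.03 in PAG sham libraries, without overlap. SNI and GC slope cannot be told apart in PAG. With the slope as a covariate, 0% of genes were called there. Sst had a log2 fold change of 0.33 (limma adjusted p = 0.655), with an SE of 0.21 against 0.09 without the slope. The estimates of Vip, Tac1, Nts, Adcyap1, Ucn and Trh turned their sign. Their SEs were 0.27, 0.14, 0.22, 0.15, 0.67 and 0.17 with the slope. Without it the SEs were 0.14, 0.09, 0.10, 0.07, 0.40 and 0.07. The estimates of Cartpt, Cck and Npy grew with that covariate to -2.17, -0.81 and 0.58, none past the threshold (limma adjusted p = 0.559, 0.594 and 0.541). Their SEs grew too, from 0.41, 0.19 and 0.11 to 0.91, 0.40 and 0.23. In NAc and PFC, where the slopes of SNI libraries (-0.22 to 0.17 and -0.26 to 0.13) and of sham libraries (-0.20 to 0.06 and -0.28 to 0.13) overlapped, Sst followed the slope within groups. The slope was lowest in the lowest-numbered library of each NAc and PFC group (libraries 1, 7, 13 and 19). A permutation treats libraries as exchangeable, so its p may be too small here. Over the 24 NAc and PFC libraries r was 0.906 and rho 0.891 (permutation p = 1e-05 for both, the smallest that 100000 draws can give, 9e-05 adjusted over 9 members), and r was 0.883 without PFC sham library 13 and PFC SNI library 19. Npy followed it less closely (r = 0.558, permutation p = 0.00467, adjusted 0.0210; rho = 0.585, adjusted 0.0135), and the other 7 members gave r of -0.268 to 0.399 with adjusted p of 0.161 or above. Within PAG, the relation of Sst with the slope was not tested. Among SNI libraries, Sst was 64.5 RPKM in library 33, of the lowest slope, and 65.5 RPKM in library 36, of the highest. The lowest SNI value, 48.0 RPKM, stood in library 31, whose slope exceeded that of library 33. Among sham libraries Sst was 44.0 RPKM in library 28, of the lowest slope, and 51.4 RPKM in library 25, of the highest. The longest transcript of Sst has a GC content of 56.0%, that of Npy 53.7%, and the members range from 38.7% for Vip to 66.1% for Ucn.

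**Figure D5:**
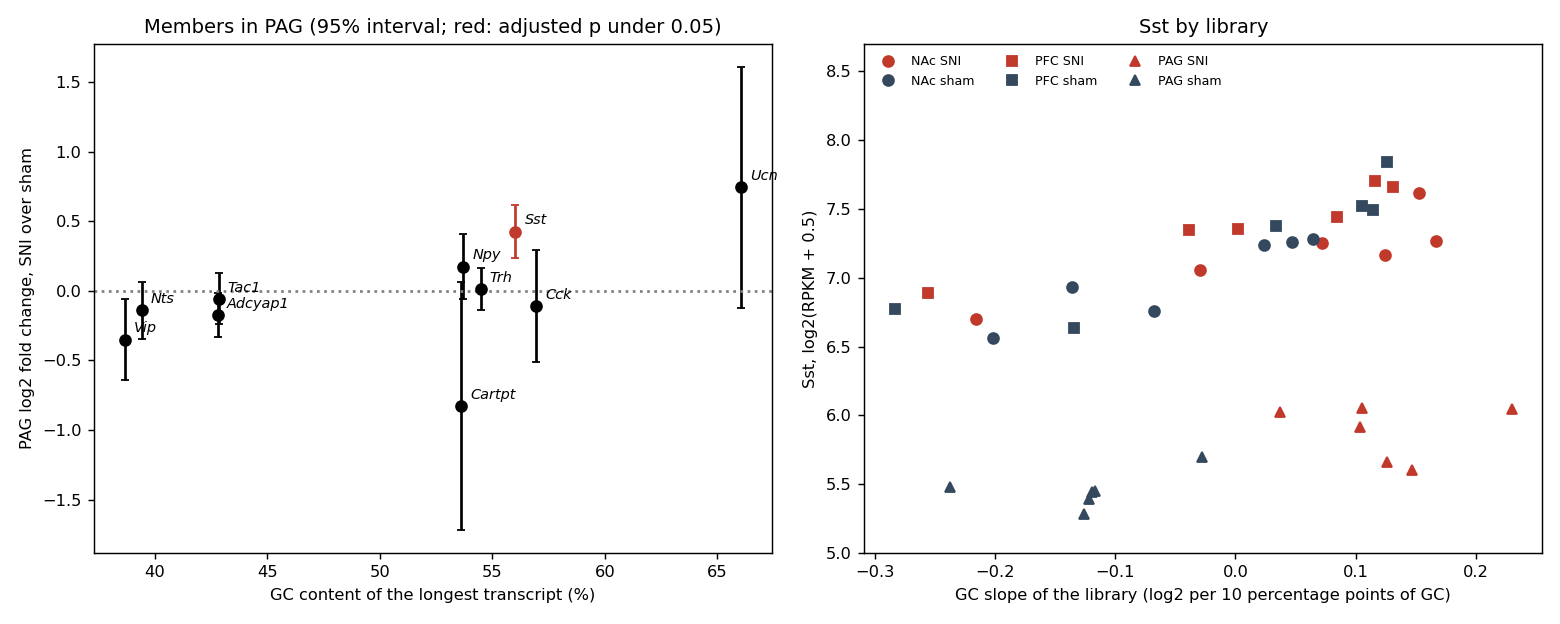
Left, log2 fold change of SNI over sham in PAG with its 95% interval against the GC content of the longest transcript of each member (red, adjusted p under 0.05). Right, Sst as log2(RPKM + 0.5) against the GC slope of each library, with SNI in red, sham in blue, NAc as circles, PFC as squares and PAG as triangles; Sst climbs with the slope in NAc and PFC, and the PAG SNI and PAG sham libraries do not overlap in slope.

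Cartpt and Ucn had the largest estimates in PAG, in opposite directions, and neither passed the test. Cartpt averaged 85.9 ± 26.97 RPKM in SNI and 185 ± 129 RPKM in sham libraries (SD, n = 6 each), a log2 fold change of -0.83 (95% interval -1.72 to 0.06, limma adjusted p = 0.133; exact permutation p = 0.0931), with all 6 SNI libraries under the sham median. Without sham library 30, the lowest of its group, the Cartpt estimate was -1.09 (limma adjusted p = 0.0477). Without sham libraries 25 and 29 it was -0.22 (adjusted p = 0.598). Ucn averaged 2.57 ± 2.04 RPKM in SNI and 1.39 ± 1.29 RPKM in sham libraries, a log2 fold change of 0.74 (-0.12 to 1.61, limma adjusted p = 0.164; exact permutation p = 0.286), with all 6 SNI libraries above the sham median. Without sham libraries 25 and 29 the Ucn estimate was 1.27 (limma adjusted p = 0.0142), and without sham library 25 alone 1.02 (adjusted p = 0.0397). Without SNI library 36, the highest, it was 0.46 (adjusted p = 0.338). Sham libraries 25 and 29 held the highest sham values of Cartpt, Ucn and Cck and were picked from these values. Leaving them out had to raise SNI over sham, so the adjusted p-values without them are not a test. In 1 model of all 36 libraries, Cartpt (limma adjusted p = 0.0443) and Ucn (0.0454) passed and Sst (0.0623) did not. That model takes a single spread per gene over all regions. The SD of log2(RPKM + 0.5) in PAG SNI and PAG sham was 0.44 and 1.10 for Cartpt and 0.76 and 0.87 for Ucn. In the NAc and PFC groups it was at most 0.38 for Cartpt and 0.23 for Ucn. The model therefore understates the PAG spread of both genes. Cck had -0.11 in the PAG fit (-0.51 to 0.29, limma adjusted p = 0.678), and without sham libraries 25 and 29 it had 0.21 (adjusted p = 0.0654).

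Vip and Adcyap1 missed the threshold, with lower levels after SNI, in a comparison that called 35.2% of all genes. In it, 7170 of 15592 genes had an unadjusted limma p under 0.05. With the GC slope as a covariate, both estimates turned positive (0.24 for Vip and 0.13 for Adcyap1). Vip was 26.3, 25.4, 37.4, 21.2, 39.2 and 22.4 RPKM in PAG SNI and 35.97, 34.97, 32.7, 41.0, 33.9 and 35.9 RPKM in PAG sham libraries; SNI libraries 31, 32, 34 and 36 lay under every sham library. Its log2 fold change was -0.35 (95% interval -0.64 to -0.06, limma adjusted p = 0.0583; exact permutation p = 0.0606), and it passed the threshold without SNI library 33 or 35 (-0.43 and -0.45, adjusted p = 0.0150 and 0.0112). Adcyap1 averaged 18 ± 2.50 RPKM in SNI and 20.2 ± 0.639 RPKM in sham libraries, a log2 fold change of -0.18 (-0.33 to -0.02, limma adjusted p = 0.0808; exact permutation p = 0.0584), and it passed without the same SNI libraries (-0.21 and -0.22, adjusted p = 0.0293 and 0.0286). Libraries 33 and 35 held the highest SNI values of Vip and Adcyap1, so leaving either out had to deepen the fall. Nts averaged 8.49 ± 1.56 RPKM in SNI and 9.32 ± 0.738 RPKM in sham libraries (log2 fold change -0.14, limma adjusted p = 0.265). It passed without SNI library 33, its highest SNI library (-0.22, adjusted p = 0.0321). Npy (0.17, adjusted p = 0.232), Tac1 (-0.06, adjusted p = 0.628) and Trh (0.01, adjusted p = 0.917) had intervals of -0.06 to 0.41, -0.24 to 0.13 and -0.14 to 0.16.

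Differences of the SNI effect between regions were tested as interaction contrasts in the model of all 36 libraries, and 0 members and 0 of 15639 genes (0%) passed for PAG minus NAc, PAG minus PFC or NAc minus PFC. At an unadjusted p under 0.05 there were 1405, 2779 and 178 genes, and voom called 0 in all 3. Cartpt had the largest difference among the members, -1.06 for PAG minus NAc (95% interval -1.91 to -0.20, limma adjusted p = 0.525) and -0.84 for PAG minus PFC (-1.69 to 0.02, adjusted p = 0.288). Sst had 0.25 (-0.23 to 0.73, limma adjusted p = 0.741) and 0.30 (-0.18 to 0.78, adjusted p = 0.483), so the Sst call in PAG is not shown to differ from its estimates in NAc and PFC.

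The receptors that receive these peptides also differed between regions. Of the 26 receptor genes listed, 18 passed the filter. In sham NAc over sham PFC, 5 were called higher and 7 lower, beside 6.85% of all genes, with a median log2 fold change of -0.26 against 0.07 over all genes tested. The NK1 receptor of substance P, Tacr1, was 7.47 ± 0.866 RPKM in NAc and 0.508 ± 0.127 RPKM in PFC (SD, n = 6 each; log2 fold change 2.98, limma adjusted p = 4.20e-25), so receptor and ligand were both scarce in PFC. The cholecystokinin receptor Cckbr was 5.17 ± 1.07 RPKM in NAc and 32.8 ± 4.84 RPKM in PFC (-2.56, limma adjusted p = 2.20e-21), the same order as Cck. The somatostatin receptors Sstr1 (-1.66) and Sstr3 (-1.76) were called lower in NAc than in PFC, and Tacr3 (2.32) and Trhr2 (1.55) higher. In PFC over PAG, 7 receptors were called higher and 3 lower, beside 15.1% of all genes (median 0.80 against -0.09 over all genes). Vipr1 was 7.97 ± 0.861 RPKM in PFC and 0.284 ± 0.043 RPKM in PAG (log2 fold change 3.43, limma adjusted p = 2.39e-30), while Vip itself averaged 27.9 RPKM in PFC and 35.7 RPKM in PAG. In NAc over PAG, where 13% of all genes were called, 3 were called higher, Vipr1 (2.94), Sstr4 (1.53) and Npy1r (1.09), and 1 lower, Tacr3 (-1.05), with a median of 0.17 against -0.02 over all genes.

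Other non-opioid precursors (40 listed, 17 tested) gave 0 higher and 3 lower calls in NAc over PFC (6.85% of all genes called), 2 higher and 4 lower in NAc over PAG (13%), and 4 higher and 3 lower in PFC over PAG (15.1%). Rln3, relaxin-3, is among them through its PAG level alone and had to differ from PAG. Grp, gastrin-releasing peptide, was 0.147 ± 0.0655 RPKM in sham NAc, 13.6 ± 1.99 RPKM in sham PFC and 2.41 ± 0.193 RPKM in sham PAG. Rln3 averaged 0.0541 RPKM in sham NAc, 0.0548 RPKM in sham PFC and 6.42 ± 1.92 RPKM in sham PAG. Cort, the cortistatin relative of somatostatin, was 4.03 ± 1.35 RPKM in PFC and 0.706 ± 0.212 RPKM in NAc, against 0.115 ± 0.0722 RPKM in PAG. Of 22 genes listed for peptide processing and breakdown, 21 were tested, with 2 higher and 1 lower in NAc over PFC. They gave 0 higher and 3 lower in NAc over PAG, and 2 higher and 5 lower in PFC over PAG, beside the same shares of all genes. The prohormone convertase Pcsk1 was lower in NAc, at 4.92 ± 1.07 RPKM, than in PFC, at 14.2 ± 2.38 RPKM (log2 fold change -1.45, limma adjusted p = 1.16e-10). Mme, neprilysin, which degrades substance P, was 9.94 ± 1.37 RPKM in NAc and 1.35 ± 0.155 RPKM in PFC (2.49, limma adjusted p = 1.19e-23).

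After SNI, 0 genes of these lists were called in NAc (19 receptors, 12 precursors and 21 processing and breakdown genes tested) or in PFC (17, 14 and 22). The smallest unadjusted p in the lists was that of Ide, insulin-degrading enzyme, in both regions, with log2 fold changes of 0.15 in NAc (limma adjusted p = 0.78) and 0.22 in PFC (adjusted p = 1). In PAG, 6 of 20 receptors tested rose and 1 fell, beside 35.2% of all genes called (21.5% higher and 13.7% lower). Their median log2 fold change was -0.02, the value over all genes tested as well. Sstr1 rose, at 6.60 ± 0.661 RPKM in SNI and 4.87 ± 0.547 RPKM in sham libraries (SD, n = 6 each; 0.40, limma adjusted p = 0.00114), and so did Trhr2 (0.48, adjusted p = 0.00535), Crhr1 (0.25, adjusted p = 0.0363), Ntsr2 (0.22, adjusted p = 0.000282) and Cckbr (0.17, adjusted p = 0.0213). Vipr2 fell (-0.37, adjusted p = 0.0449).

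Among 18 other precursors tested in PAG, 4 rose and 1 fell, with a median of 0.08. Vgf, an activity-regulated precursor of several peptides, was 30.9 ± 6.63 RPKM in SNI and 18.8 ± 3.58 RPKM in sham libraries (SD, n = 6 each; log2 fold change 0.70, limma adjusted p = 0.00120). Npb (0.44, adjusted p = 0.0245), Nppc (0.40, adjusted p = 0.0137) and Tac2 (0.35, adjusted p = 0.0395) rose at low levels, with means of 0.764, 1.22 and 1.43 RPKM in SNI and 0.430, 0.801 and 1.04 RPKM in sham libraries, and Nucb2 fell (-0.17, adjusted p = 0.0187). Of 21 genes tested from the list for peptide processing and breakdown, 1 rose and 8 fell, with a median of -0.07. The endopeptidase Thop1 rose (0.39, limma adjusted p = 0.00117), while the processing enzymes Pcsk1 (-0.32, adjusted p = 0.0166) and Pam (-0.21, adjusted p = 0.0265) and the peptidases Lnpep (-0.25) and Ctsl (-0.23) fell, as did Dpp10 (-0.20). These counts stand beside the 35.2% of all genes called in PAG (21.5% higher and 13.7% lower). With the GC slope as a covariate, 0 genes of the 3 lists were called.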

How the data were processed

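The authors deposited 1 table of RPKM values with gene lengths for 36 libraries. TopHat2, HTSeq and the mm10 build are named in the notes on processing, per the submitters' processing notes; settings such as strand were not given in these sources. None of the 10 members overlaps another gene in GENCODE M21, which held 97.9% of the gene identifiers. Per the labels' protocols, polyadenylated RNA went into Illumina TruSeq libraries. The RPKM values multiplied by length gave whole reads within 0.001 for 100% of values, which yielded depths of 27.6 to 64.9 M reads. No library repeated another: among the 90 same-group pairs, chi-square over its degrees of freedom was 3.89 or more.

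The tests used limma 3.58.1 under R 4.3.3 on log2(RPKM + 0.5) with a mean-variance trend, for genes averaging 0.5 RPKM or more in the fit, two-sided with Benjamini-Hochberg adjustment over all genes of the fit. This scale shrinks fold changes of low genes. Single values were tested by exact permutation over 924 assignments, relations by 100000 permutations. The scripts were tested on simulated data. Alternatives were pseudocounts of 0.1 and 1, no filter or 2 RPKM, median of ratios and quantile scaling, voom on recovered reads, 1 model of all libraries, the GC slope (over genes averaging 2 RPKM or more) as a covariate, SNI in place of sham libraries for regions, and leaving out each library. A Slc17a7 covariate, the omission of PAG sham libraries 25 and 29, and the relations with Slc17a7 and with the GC slope were added after seeing the data. Members, lists and tests were chosen with earlier results of these data known. The rule for names took, of each list, at most 6 genes past the threshold by size, otherwise the 2 of smallest p; not all are printed. No sample lacked a group.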

Additional observations from a re-analysis of the deposited data

Results flagged for a closer look

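In 8 of the 60 groups of 6 libraries (10 genes in 6 groups), 1 library stood so far from the others that its gap to the nearest, divided by the range of the group, exceeded Dixon's 95% critical value for 6 libraries; chance gives about 1 in 20 groups, or 3 of 60. In NAc SNI libraries, Nts was 39.7 RPKM in library 8 and 25.2 to 28.5 in the others (ratio 0.769), and Adcyap1 was 3.62 RPKM in library 7, the library with the highest Slc17a7, and 0.110 to 1.36 in the others (0.644). In PFC SNI libraries, Cartpt was 3.79 RPKM in library 22 and 2.11 to 2.65 in the others (0.680), and Trh was 1.82 RPKM in library 24 and 0.969 to 1.17 in the others (0.760). In PFC sham libraries, Tac1 was 3.71 RPKM in library 17 and 4.17 to 4.45 in the others (0.627), Adcyap1 was 16.5 RPKM in library 13 and 12.3 to 13.9 in the others (0.633), and Ucn was 0.185 RPKM, or 5 reads, in library 18 and 0 to 0.0394 in the others (0.787). In PAG SNI libraries, Ucn was 6.60 RPKM in library 36 and 1.25 to 2.68 in the others (0.733). No library was marked for more than 1 member.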

How the results depend on the processing

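In PAG, 3337 genes were called in 1 model of all 36 libraries and 0 with the GC slope as a covariate. Members called there numbered 2 with a 2 RPKM filter, with median of ratios scaling and with voom (Sst and Vip). They numbered 3 with quantile scaling (Sst, Vip and Adcyap1), 2 in 1 model of all libraries (Cartpt and Ucn) and 0 with the GC slope. Without sham libraries 25 and 29 they numbered 2 (Sst and Ucn), where Ucn was called once its highest sham values were removed. Leaving out 1 library gave 1 to 4. Leaving out 1 library gave 0 to 3 genes in NAc, 0 to 1 for the difference of SNI effects PAG minus NAc, and 0 to 1144 for PAG minus PFC, the last without PFC sham library 13. A Slc17a7 covariate called 1 gene in NAc, and no member. For PAG minus NAc, a pseudocount of 1 and no filter called 4 genes each; for PAG minus PFC they called 5 and 11, and for NAc minus PFC no filter called 1. Members called between sham regions numbered 6 for NAc over PFC, 9 for NAc over PAG and 8 for PFC over PAG whichever library was left out. Those counts include Ucn, which had to differ from PAG. Without Ucn and with all libraries they were 6, 8 and 7 of 9. Of all genes, 6.85%, 13% and 15.1% were called with all libraries.

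Signs turned as follows, on the log2 scale, in estimates that passed no threshold. With the GC slope, NAc Sst -0.015, Npy -0.036 and Adcyap1 0.077, PFC Cartpt -0.0029, PAG Vip 0.24, Tac1 0.43, Nts 0.11, Adcyap1 0.13, Ucn -1.53 and Trh -0.062, and Sst -0.072 for PAG minus NAc and -0.18 for PAG minus PFC. With a Slc17a7 covariate, NAc Adcyap1 0.0043; with voom, PFC Cartpt -0.0042; with quantile scaling, PAG Trh -0.034. Without sham libraries 25 and 29, Cck was 0.21 in PAG and 0.20 for sham NAc over PAG. With SNI libraries in place of sham, Ucn was 0.017 for NAc over PFC and Vip 0.024 for PFC over PAG. Leaving out 1 library gave ranges of -0.026 to 0.066 for NAc Npy, -0.063 to 0.13 for Nts, -0.45 to 0.10 for Adcyap1 and -0.095 to 0.048 for Trh; of -0.081 to 0.074 for PFC Npy, -0.022 to 0.055 for Vip, -0.070 to 0.045 for Cck, -0.024 to 0.054 for Tac1, -0.090 to 0.15 for Cartpt and -0.13 to 0.0066 for Trh; of -0.21 to 0.037 for PAG Cck, -0.13 to 0.0045 for Tac1 and -0.037 to 0.046 for Trh; and of -0.11 to 0.053 for Ucn in sham NAc over PFC and -0.39 to 0.36 for Cck in sham NAc over PAG. The cause was not tested; GC slope and surgery cannot be told apart in PAG. Trh for NAc over PFC passed the 2-fold limit with a pseudocount of 0.1 (1.12) and with voom (1.17). Depth limits Ucn in NAc and PFC, at 0 to 6 reads a library, so its NAc over PFC values above rest on the pseudocount and are not a result. No paired analysis was possible because the groups share no replicate numbers.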
